A study of Mus musculus with 12 samples.

Results

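AP-1 is a family of transcription factors that bind DNA as pairs of basic leucine zipper proteins. The 10 members followed here were taken as the rows of the deposited count table whose gene symbol is Jun, Junb, Jund, Fos, Fosb, Fosl1, Fosl2, Atf3, Batf or Maff. All 10 were found among 55335 genes, and each symbol stood on a single row. Jun proteins can pair with each other or with Fos proteins, whereas Fos proteins need a Jun partner; Atf3, Batf and Maff are zipper proteins that join these pairs or form pairs of their own. Many AP-1 genes are immediate-early genes, transcribed within minutes of a growth factor, cytokine or stress signal through MAP kinases and the serum response factor SRF. In macrophages the family is known for its part in inflammatory gene activation, and in liver for the early response to feeding signals, injury and regeneration.

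The study asked what the thyrotropin (TSH) receptor gene Tshr does in myeloid cells. RNA was sequenced from bone-marrow-derived macrophages (BMDMs) and from livers of male C57BL/6N mice, with 3 libraries in each of 4 groups and, per the methods, 3 mice per group. Tshr f/f mice carry loxP sites around the last coding part of Tshr on both alleles, and Tshr MKO mice (Tshr f/f,Lyz2-Cre) carry the same alleles plus Cre under the Lyz2 promoter, which is active in macrophages, monocytes and neutrophils, so that hepatocytes of Tshr MKO mice keep the gene. BMDMs of both genotypes came from littermates (6 weeks old per the labels, 6 to 8 weeks per the methods), were grown for 7 days with 10 ng/mL M-CSF and received 1 ng/mL TSH for 24 h. Livers of both genotypes came from mice that started a high-fat diet (HFD) at 6 weeks of age, ate it for 9 weeks, fasted for 8 h and received 1.5 U/kg insulin 5 min before death. No library of either tissue lacked the TSH or the insulin treatment, so the responses to these agents cannot be read from these data. Livers are bulk tissue, in which fewer cells of a type and less RNA per cell cannot be told apart.

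Libraries held 28962878 to 40954211 counts. Tshr itself had 0, 0 and 2 counts in f/f BMDMs, 0, 0 and 5 in MKO BMDMs and 0 in every liver, so the counts cannot check the genotype. A receptor listing supplied with the study places the same liver libraries under the opposite genotype; the livers are therefore called livers labelled f/f and livers labelled MKO, and every liver direction follows the labels. All 5 hepatocyte markers were at 0 in f/f BMDMs and 4 of 5 in MKO BMDMs. Of the 5 Kupffer cell markers, only Clec4f was at 0 in BMDMs. Their sum was at 229 to 505 CPM (counts scaled to a common library size) in f/f and 64.8 to 373 CPM in MKO BMDMs. Of the 4 Kupffer cell markers tested in BMDMs, 2 were lower and 2 higher, with 2 and 0 at an unadjusted p under 0.05 (edgeR). Summed macrophage markers (6 genes, including Lyz2) were at 14459 to 16066 CPM in f/f BMDMs and 19800 to 29047 CPM in MKO BMDMs. Of these 6 genes, 3 were lower and 3 higher in MKO BMDMs, with 0 and 1 at an unadjusted p under 0.05 (edgeR). Summed neutrophil markers (8 genes, with Cxcr2 at 0 in f/f) were at 7.56 to 49.1 CPM in f/f and 4.91 to 11.6 CPM in MKO BMDMs. Of the 4 neutrophil markers tested, 2 were lower and 2 higher, with 2 and 1 at an unadjusted p under 0.05 (edgeR). Summed stellate cell or fibroblast markers (4 genes, with Lrat at 0) were at 922 to 2195 CPM in f/f and 593 to 1110 CPM in MKO BMDMs. The highest value was in f/f replicate 2. All 3 of these markers that were tested were lower in MKO BMDMs, 0 at an unadjusted p under 0.05 (edgeR). The part of these cells in the AP-1 values was not tested. Lyz2, whose promoter drives Cre, was at 8871, 9844 and 8773 CPM in f/f BMDMs and 16149, 14537 and 22320 CPM in MKO BMDMs. In liver it was at 27.7, 59.9 and 44.7 CPM under the f/f label and 1.56, 106 and 43.7 CPM under the MKO label. BMDM f/f replicate 3 stood apart: its composition scaling factor (TMM) was 0.738 against 0.992 to 1.11 in the other 5, and it held the highest level of 7 of the 10 AP-1 genes. MKO replicate 3 also stood apart from its group, with a chi-square per degree of freedom of 93.2 and 107.1 against the other MKO libraries, which differed from each other by 12.3; in f/f BMDMs the pairs differed by 218 to 521. The genotype difference of each member in BMDMs is therefore also given without f/f replicate 3, and without MKO replicate 3 where that moved it.

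The promoters of 9 of the 10 members were found in RefSeq's table (GRCm38.p6), as 11 windows because Maff has 3 starts. The windows of 5 members are shown, each as the 150 bases before the start on the gene's own strand. Jun and Fos are the founding pair, and Junb is the Jun gene whose BMDM level lay on the other side of Jun's. Batf and Maff varied with Junb over the BMDM libraries (Pearson's r = 0.95 and 0.97). Fosl2 also did (r = 0.93), and its window is not shown. Capitals mark matches, on either strand, to the AP-1 site TGANTCA, the SRF site (CArG box) or the TATA box TATAAA. They also mark TGACNTCA, which is the cyclic AMP response element where N is G and a variant of it otherwise. The core of that element, TGACGT, overlaps it where N is G and is marked as well.
Jun, chr4:95052223-95052372, minus strand: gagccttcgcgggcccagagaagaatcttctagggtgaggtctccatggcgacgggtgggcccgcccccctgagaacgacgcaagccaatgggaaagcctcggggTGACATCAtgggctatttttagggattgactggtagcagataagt
Fos, chr12:85473740-85473889, plus strand: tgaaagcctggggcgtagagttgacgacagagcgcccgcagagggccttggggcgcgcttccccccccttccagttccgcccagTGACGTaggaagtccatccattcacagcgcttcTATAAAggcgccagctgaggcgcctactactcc
Junb, chr8:84978749-84978898, minus strand: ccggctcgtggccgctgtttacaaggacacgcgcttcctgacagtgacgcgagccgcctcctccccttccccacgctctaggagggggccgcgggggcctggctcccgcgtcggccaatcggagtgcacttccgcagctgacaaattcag
Batf, chr12:85686570-85686719, plus strand: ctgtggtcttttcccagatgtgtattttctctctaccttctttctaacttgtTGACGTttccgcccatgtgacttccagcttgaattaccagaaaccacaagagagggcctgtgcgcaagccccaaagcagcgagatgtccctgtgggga
Maff, chr15:79347370-79347519, plus strand: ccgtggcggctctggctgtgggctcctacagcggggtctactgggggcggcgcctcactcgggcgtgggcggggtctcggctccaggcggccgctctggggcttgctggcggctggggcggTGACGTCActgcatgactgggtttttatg
The Jun window held TGACATCA from base -45 to base -38 relative to the start, the Fos window held the core from -66 to -61 and a TATA box from -33 to -28, and the Maff window shown held the full palindrome from -29 to -22. Of the Maff windows not shown, that of the start at 79348402 held TGACATCA from -45 to -38, and that of the start at 79346621 held no match. Among the other members not shown, Atf3 held the core on the opposite strand from -8 to -3. Fosl2, Fosb and Jund held no match, nor did the Junb window shown. No window of a member held TGANTCA or a CArG box in these 150 bases. Among 32851 promoter windows of the same length, 4.24% held TGANTCA, 5.70% TGACNTCA, 5.15% TGACGT, 0.916% a CArG box and 7.57% TATAAA. These matches describe the letters only.

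In TSH-treated BMDMs, Jun was higher in every MKO library than in every f/f library, while Maff, Fosl1 and Batf were lower in every MKO library. Jun encodes the founding Jun protein, Fosl1 and Batf encode partners of Jun proteins, and Maff is a small Maf protein without an activation domain. With edgeR's quasi-likelihood test, 0 of 10 members passed an adjusted p of 0.05 (Benjamini-Hochberg over 15372 genes), as did 0% of all genes. At an unadjusted p under 0.05, 4 members were lower in MKO BMDMs (Maff, Fosl1, Batf and Junb), against 10.2% of all genes, and 1 was higher (Jun), against 7.73%. Groups did not overlap for 3 members that were lower and 1 that was higher, against 14% and 14.8% of all genes. DESeq2 called 2 members at the same adjusted threshold, Jun and Maff, against 671 lower and 442 higher of 25135 genes, and gave no p for Fosl1. The median log2 difference of the members (MKO minus f/f) was -0.73 against 0.01 for all genes, and -0.21 without f/f replicate 3. Without that library, 2 members were lower (Maff and Fosl1) and 2 higher (Jun and Atf3) at an unadjusted p under 0.05. There was 1 lower without MKO replicate 1 or 2, and there were 5 without MKO replicate 3. The share of all genes at this unadjusted threshold was counted with all libraries only, so these counts have no share beside them.

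**Figure D1:**
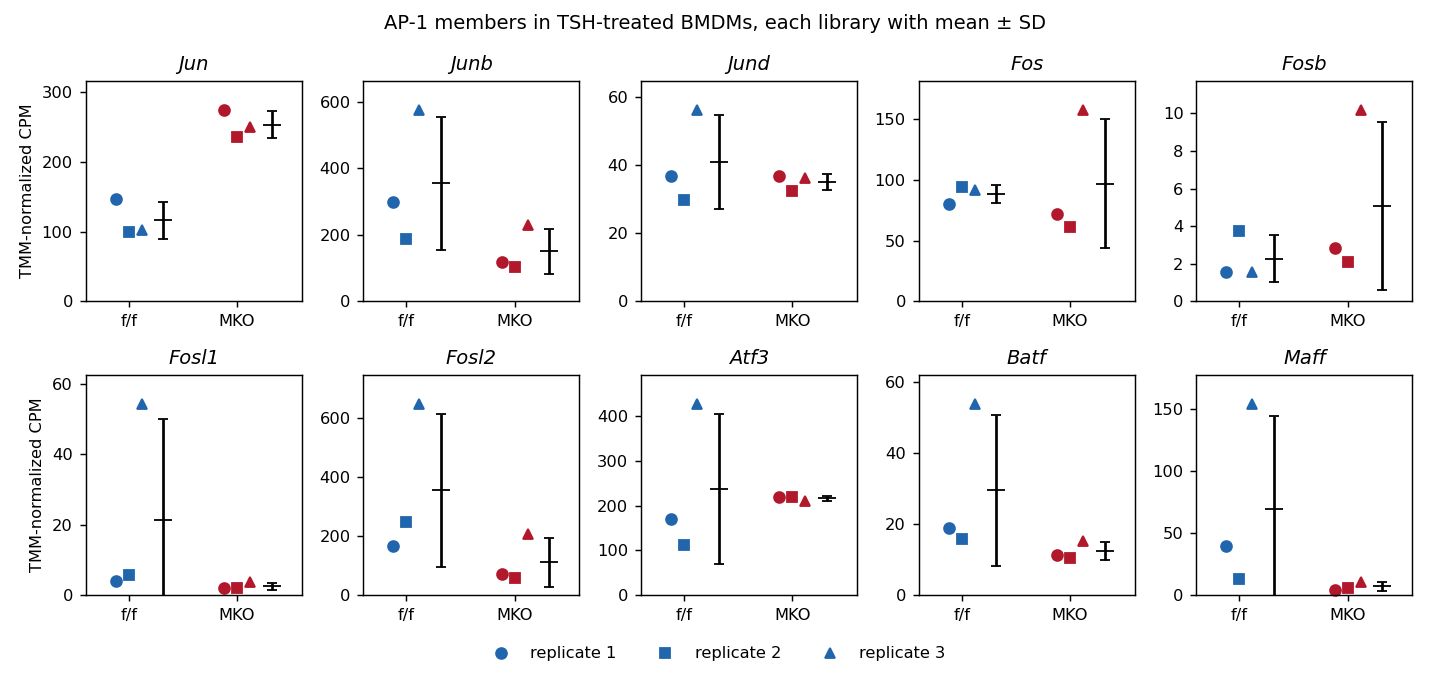
TMM-normalized CPM of each AP-1 member in the 3 f/f and 3 MKO BMDM libraries, on a linear axis from 0. Symbols mark the replicates and black bars the mean ± SD, cut at 0 where the SD exceeds the mean; Jun sits higher in all MKO libraries, and f/f replicate 3 (blue triangle) is the highest library for 7 members.

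Among the Jun genes, Jun (ENSMUSG00000052684, a single-exon gene at chr4:95049034-95052222, minus strand, GRCm38) stood at 147, 99.3 and 101.8 CPM in f/f BMDMs and at 274.7, 235 and 250 CPM in MKO BMDMs. The lowest MKO library thus lay above the highest f/f library, and this held for f/f replicate 3 as for the others. The log2 difference was 1.13 ± 0.20 (SE, n = 3 per group), a 2.19-fold higher level, with an unadjusted p of 0.00106 and an adjusted p of 0.218 by edgeR. Leaving out each library in turn kept it between 1.03 and 1.36, with adjusted p from 0.0834 to 0.587. DESeq2 gave 1.14 with an adjusted p of 1.44e-04, and the edgeR fit over all 12 libraries gave 1.14 with an adjusted p of 0.0445.

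Junb (chr8:84974484-84978718, minus strand), whose product binds the same sites as Jun but activates many of them less strongly, was at 299.01, 189 and 577 CPM in f/f BMDMs and at 117, 103 and 229 CPM in MKO BMDMs. The groups overlapped, since MKO replicate 3 lay above f/f replicate 2. Its log2 difference was -1.24 ± 0.50 (unadjusted p = 0.0443, adjusted p = 0.269, edgeR), -0.71 without f/f replicate 3 (unadjusted p = 0.132) and -1.68 without MKO replicate 3 (unadjusted p = 0.0155). Jund (chr8:70698949-70700616, plus strand), the Jun gene with steady expression in many resting cells, was at 36.8, 29.6 and 56.1 CPM in f/f BMDMs and at 36.6, 32.2 and 36.2 CPM in MKO BMDMs. Apart from f/f replicate 3, all 5 libraries of Jund lay between 29.6 and 36.8 CPM, and its log2 difference was -0.22 ± 0.24 (adjusted p = 0.633, edgeR), or 0.08 without that library.

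Within a library, the ratio of Jun to Junb per kilobase of exon does not depend on library scaling. It was 0.354, 0.380 and 0.127 in f/f BMDMs and 1.69, 1.64 and 0.787 in MKO BMDMs. Junb thus exceeded Jun in all 3 f/f libraries, and Jun exceeded Junb in 2 of 3 MKO libraries. In livers the same ratio was 0.425, 0.697 and 0.873 under the f/f label and 1.39, 0.771 and 0.735 under the MKO label, so the groups overlapped. The ratio was chosen after the values were seen, and no test is given for it.

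**Figure D2:**
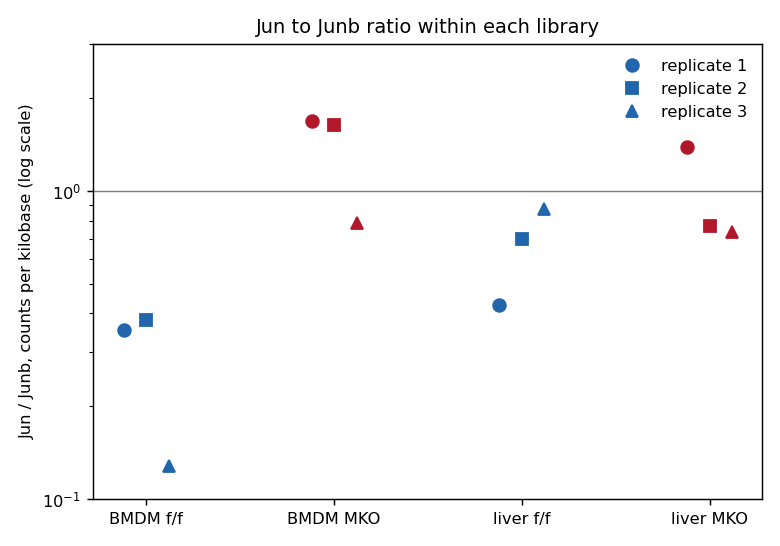
Ratio of Jun to Junb, each in counts per kilobase of exon, in every library on a log axis, with the grey line at 1. In BMDMs the f/f libraries lie between 0.127 and 0.380 and the MKO libraries between 0.787 and 1.69; in livers the groups overlap.

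Among the Fos genes, Fos (chr12:85473890-85477273, plus strand), the classical immediate-early partner of Jun, was at 80.0, 93.8 and 91.7 CPM in f/f BMDMs and at 71.7, 61.2 and 158 CPM in MKO BMDMs. The MKO libraries thus lay on both sides of the f/f libraries, with MKO replicate 3 highest. The log2 difference was 0.13 ± 0.36 (adjusted p = 0.861, edgeR), and it was 0.15 without f/f replicate 3 and -0.41 without MKO replicate 3 (unadjusted p = 0.0430). Fosb (chr7:19302696-19310051, minus strand), a close relative of Fos, was the scarcest member in f/f BMDMs, at 1.56, 3.73 and 1.54 CPM in f/f BMDMs and at 2.85, 2.11 and 10.2 CPM in MKO BMDMs. Its highest library was again MKO replicate 3, the groups overlapped, and the log2 difference of 1.14 ± 0.70 (adjusted p = 0.414, edgeR) was 0.12 without that library and 0.93 without f/f replicate 3.

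Fosl1 (chr19:5447547-5455946, plus strand), which encodes Fra-1, a Fos relative without a strong activation domain of its own, was at 4.07, 5.84 and 54.3 CPM in f/f BMDMs and at 1.88, 1.89 and 3.66 CPM in MKO BMDMs. Groups did not overlap, and f/f replicate 3 was 10.97-fold above the mean of the other f/f libraries (7.61-fold without TMM scaling). The log2 difference was -3.10 ± 1.07 (unadjusted p = 0.0258, adjusted p = 0.242, edgeR) and -0.999 ± 0.38 without f/f replicate 3 (unadjusted p = 0.0407). Fosl2 (chr5:32135801-32157842, plus strand), which encodes the related Fra-2, was at 166, 249 and 650 CPM in f/f BMDMs and at 71.2, 57.3 and 207 CPM in MKO BMDMs. Here MKO replicate 3 lay above f/f replicate 1, so the groups overlapped. Fosl2 differed by -1.66 ± 0.70 on the log2 scale (unadjusted p = 0.0513, adjusted p = 0.280, edgeR), by -0.90 without f/f replicate 3 and by -2.46 without MKO replicate 3 (unadjusted p = 0.0132).

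Of the 3 members outside the Jun and Fos genes, Maff differed most. Maff (chr15:79346621-79359076, plus strand) was at 39.8, 13.3 and 154 CPM in f/f BMDMs and at 4.44, 5.68 and 10.7 CPM in MKO BMDMs. All f/f libraries lay above all MKO libraries, although the f/f libraries themselves spanned from 13.3 to 154 CPM. The log2 difference was -3.31 ± 0.92, or 9.91-fold lower, with an unadjusted p of 0.0105 and an adjusted p of 0.222 by edgeR; DESeq2 gave an adjusted p of 9.30e-04. Without f/f replicate 3 it was -1.94 ± 0.57 (unadjusted p = 0.0176, edgeR). Batf (chr12:85686669-85709087, plus strand), which pairs with Jun proteins and is best known in lymphocytes and dendritic cells, was at 18.9, 15.7 and 54.0 CPM in f/f BMDMs and at 11.3, 10.6 and 15.3 CPM in MKO BMDMs. The f/f libraries lay above the MKO libraries only by the step from 15.3 to 15.7 CPM, and the log2 difference of -1.25 ± 0.49 (unadjusted p = 0.0418, adjusted p = 0.265, edgeR) was -0.49 without f/f replicate 3 (unadjusted p = 0.0502). Summed dendritic cell markers (4 genes) were at 10.2 to 17.3 CPM in f/f and 6.87 to 8.15 CPM in MKO BMDMs, with all 4 detected in each genotype. Of the 3 tested, 2 were lower and 1 higher in MKO BMDMs, with 1 and 0 at an unadjusted p under 0.05 (edgeR). The part of dendritic cells in the Batf values was not tested.

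Atf3 (chr1:191170296-191218039, minus strand), a stress-inducible factor that represses inflammatory genes as a pair with itself, was at 170, 112 and 428 CPM in f/f BMDMs and at 219, 219 and 209 CPM in MKO BMDMs. The MKO libraries lay close together and inside the f/f range. Its log2 difference was -0.13 ± 0.48 (adjusted p = 0.892, edgeR), and without f/f replicate 3 it turned to 0.61 ± 0.20 (unadjusted p = 0.0271, adjusted p = 0.256). Over the 6 BMDM libraries, Pearson's r was 0.98 between Batf and Fosl1, 0.97 between Junb and Maff and 0.93 between Fosl2 and Fosl1, while Jun had r = -0.76 with Fosl1 and r = -0.78 with Fosl2; these values share libraries and genotypes and are a description only.

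**Figure D3:**
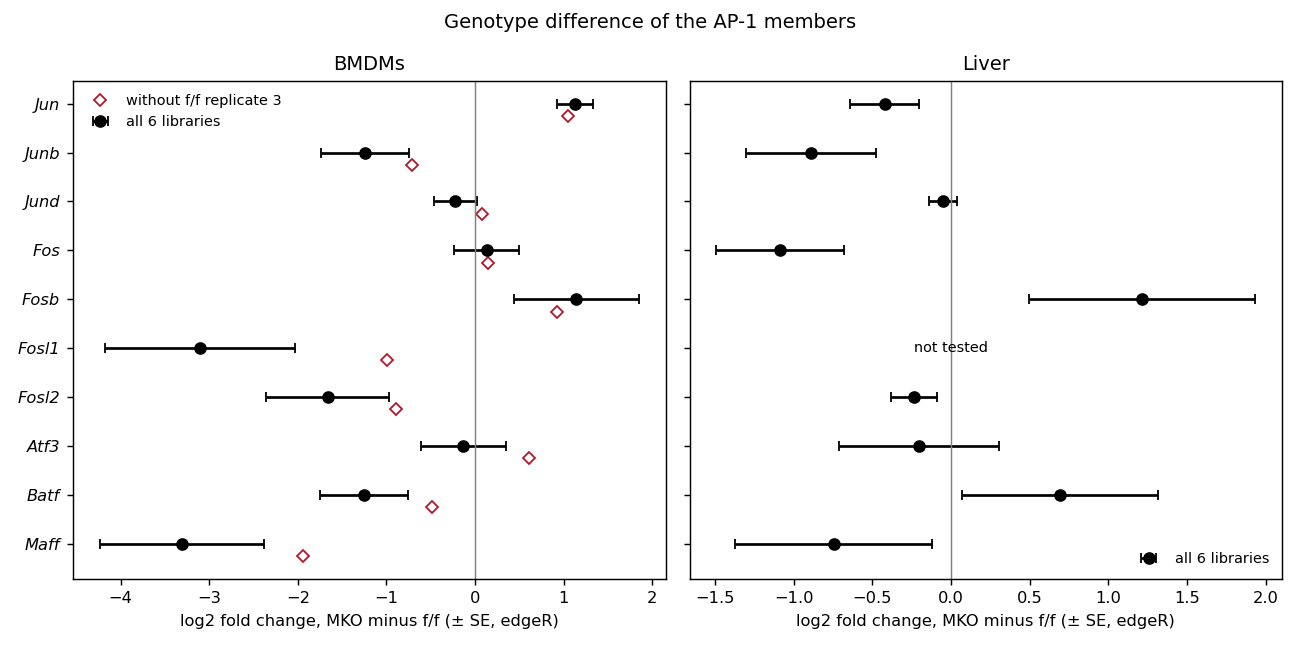
Log2 fold change of each AP-1 member, MKO minus f/f, with its standard error from edgeR, in BMDMs (left) and in livers as labelled (right); the horizontal scales differ. Open diamonds give BMDM values without f/f replicate 3, at which Fosl1 moves from -3.10 to -0.999 and Atf3 and Jund move across 0, while Jun stays at 1.04; Fosl1 was not tested in liver.

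The wider AP-1 pathway in BMDMs was followed in 4 lists of genes, and none of their genes passed the adjusted threshold by edgeR. Of 20 textbook AP-1 targets tested, 10 were lower and 2 higher in MKO BMDMs at an unadjusted p under 0.05, where 10.2% of all genes were lower and 7.73% higher. Their median log2 difference was -1.19, against 0.01 for all genes. Without f/f replicate 3 there were 8 lower targets and a median of -0.86, and the count was between 8 and 12 when each library was left out in turn. Lif, a cytokine of the interleukin-6 family, was at 14.5, 10.3 and 82.9 CPM in f/f and 1.18, 1.25 and 1.95 CPM in MKO BMDMs. In the other direction, Spp1 (osteopontin) was at 553, 221 and 377 CPM in f/f and 958, 1270 and 828 CPM in MKO BMDMs, and the macrophage elastase gene Mmp12 at 239, 249 and 166 against 425, 314 and 852 CPM. Groups did not overlap for any of these 3 targets.

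Of 23 other bZIP genes tested in BMDMs, which can pair with AP-1 proteins or share their sites, 5 were lower and 5 higher in MKO BMDMs at the same unadjusted threshold, also without f/f replicate 3, with a median log2 difference of -0.31 (-0.14 without it). These counts ran from 2 lower (without MKO replicate 2) to 8 lower (without f/f replicate 2), and from 1 higher (without MKO replicate 3) to 5 higher. Maf, the large Maf protein linked to macrophage differentiation, was at 164, 137 and 93.1 CPM in f/f and 342, 292 and 343 CPM in MKO BMDMs (1.31 ± 0.24 on the log2 scale), and Batf3 differed by 1.02 ± 0.32. Batf2 differed by -3.17 ± 0.80 on the log2 scale (-2.31 without f/f replicate 3) and Nfe2l1, a regulator of proteasome genes, by -0.94 ± 0.21. Of 28 kinases and SRF factors that act upstream of AP-1 genes, 3 were lower and 4 higher, with or without f/f replicate 3, against 10.2% and 7.73% of all genes. The counts were 6 lower without f/f replicate 2, 5 lower without f/f replicate 1 and 2 higher without MKO replicate 3. Map3k1, a kinase at the head of the JNK cascade that phosphorylates Jun, was at 62.6, 68.2 and 47.6 CPM in f/f and 131, 127 and 163 CPM in MKO BMDMs, and Mrtfb, a coactivator of SRF, was higher by 0.49 ± 0.14 on the log2 scale. Map2k1 (MEK1) was at 129, 126 and 259 CPM in f/f and 79.7, 80.3 and 77.9 CPM in MKO BMDMs (log2 difference -1.11 ± 0.30, or -0.68 without f/f replicate 3), and Mapk11 (p38 beta) differed by -1.41 ± 0.40. Among 19 other immediate-early genes, 1 was lower (Ccn1, log2 difference -1.32 ± 0.39) and 1 higher (Klf10, 1.09 ± 0.20), also without f/f replicate 3. Without MKO replicate 3, 7 of these immediate-early genes were lower; there were 3 lower without f/f replicate 2, and 2 lower and 2 higher without f/f replicate 1. The 5 genes whose levels over the 6 BMDM libraries were most like those of Jun were Lrrc14b, Rftn1, Csnk1g2, Lgmn and Fchsd1, with Pearson's r from 0.995 to 0.999.

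In livers, Fos was the member with the smallest p. With scaling within liver, it was lower in every library labelled MKO than in every library labelled f/f. With edgeR, 0 of the 9 members tested passed an adjusted p of 0.05, as did 0% of 15062 genes, and DESeq2 also called 0 members. At an unadjusted p under 0.05, 1 member was lower (Fos), against 5.18% of all genes, and 0 were higher, against 5.27%. With scaling within liver, groups did not overlap for 1 member that was lower and 0 that were higher, against 7.74% and 9.6% of all genes. The median log2 difference of the 9 members was -0.24, against -0.01 for all genes.

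**Figure D4:**
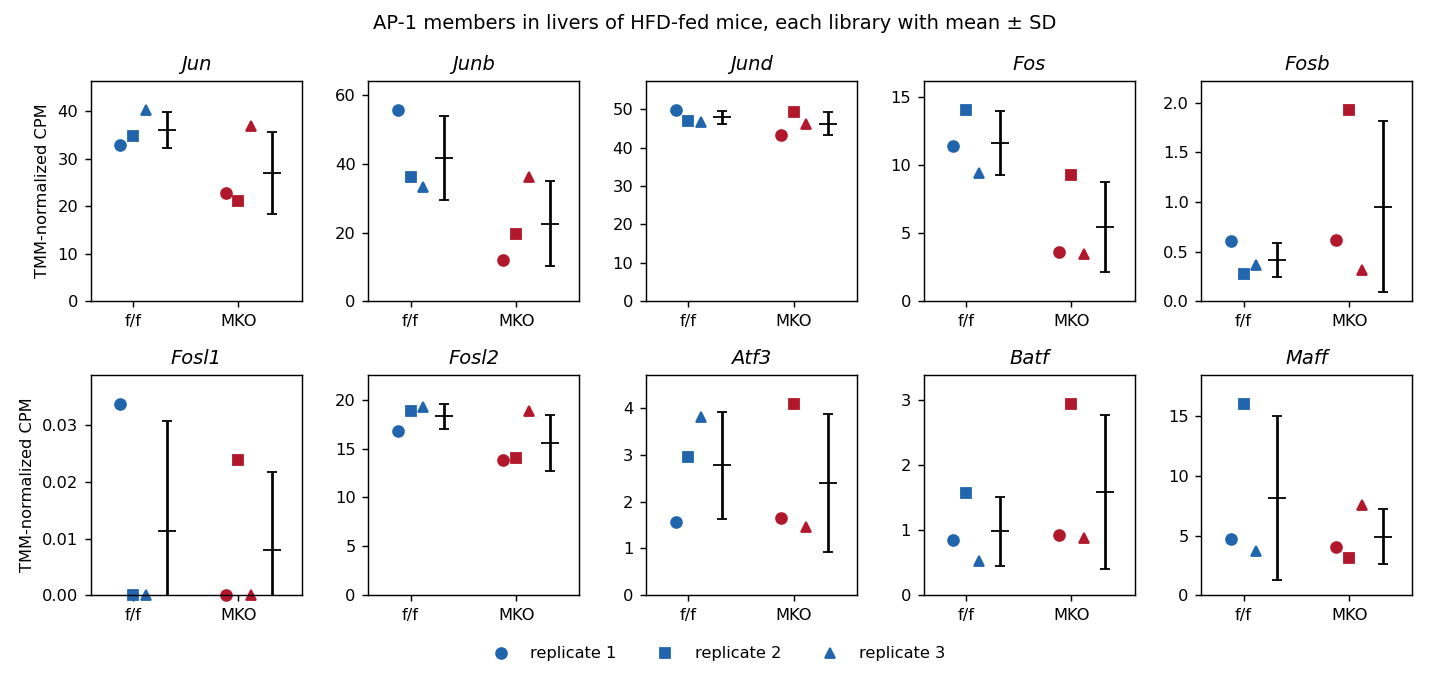
TMM-normalized CPM of each AP-1 member in the 3 livers labelled f/f and the 3 labelled MKO, on a linear axis from 0, with replicates as symbols and mean ± SD as black bars, cut at 0. With scaling within liver, as shown, the Fos groups do not overlap, at 9.39 to 14.0 against 3.47 to 9.24 CPM. Fosl1 rests on at most 1 count per library.

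Fos was at 11.4, 14.0 and 9.39 CPM in livers labelled f/f and at 3.63, 9.24 and 3.47 CPM in livers labelled MKO. The highest MKO-labelled library lay just under the lowest f/f-labelled one. With scaling over all 12 libraries these 2 changed order and the groups overlapped, at 12.81 CPM in MKO replicate 2 and 12.76 CPM in f/f replicate 3. The log2 difference was -1.08 ± 0.41, a 2.12-fold lower level, with an unadjusted p of 0.0329 and an adjusted p of 0.437 by edgeR. It stayed between -1.72 (without MKO replicate 2) and -0.85 (without MKO replicate 3) when each library was left out. The sample IDs of the livers begin with A or B, a mark whose meaning the labels do not give. In replicate order the letters were A, A and B under the f/f label and B, B and A under the MKO label. Letter and genotype label were thus partly tied, and MKO replicate 3 was the MKO-labelled liver with A. With that letter as a covariate Fos differed by -1.19 ± 0.51 (unadjusted p = 0.0587, edgeR) and 0 members reached an unadjusted p under 0.05. No member was lower at that threshold without f/f replicate 1, f/f replicate 2 or MKO replicate 1 (edgeR; Fos at unadjusted p = 0.0560, 0.0914 and 0.1001). Without MKO replicate 3, Jun, Junb and Fosl2 were the 3 lower members and Fosb the 1 higher, and Fos had an unadjusted p of 0.0904. As in BMDMs, no share of all genes was counted at this threshold with a library left out or the letter as covariate.

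Liver Junb was at 55.7, 36.1 and 33.3 CPM under the f/f label and at 11.9, 19.7 and 36.1 CPM under the MKO label. The groups overlapped through MKO replicate 3, and the log2 difference was -0.89 ± 0.41 (unadjusted p = 0.0710, adjusted p = 0.507, edgeR), or -1.40 without MKO replicate 3 (unadjusted p = 0.00552). Jun was at 32.8, 34.8 and 40.2 against 22.8, 21.1 and 36.8 CPM, with MKO replicate 3 inside the f/f range (-0.42 ± 0.22, adjusted p = 0.553, edgeR); without that library the difference was -0.71 ± 0.13 (unadjusted p = 0.00156). Jund was the steadiest member in liver, at 49.8, 46.9 and 46.8 against 43.3, 49.3 and 46.0 CPM (-0.05 ± 0.09). Fosl2 was at 16.8, 18.8 and 19.2 against 13.8, 14.0 and 18.8 CPM, also with MKO replicate 3 at the f/f level (-0.24 ± 0.15, or -0.39 ± 0.12 without it, unadjusted p = 0.0183).

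The groups of the remaining members also overlapped in liver. Maff was at 4.70, 16.1 and 3.72 CPM under the f/f label and 4.05, 3.12 and 7.54 CPM under the MKO label. Its log2 difference of -0.74 ± 0.63 rested on f/f replicate 2, without which it was 0.21. Atf3 was at 1.56, 2.95 and 3.82 against 1.65, 4.10 and 1.45 CPM, Batf at 0.846, 1.57 and 0.531 against 0.922, 2.95 and 0.885 CPM, and Fosb at 0.609, 0.276 and 0.365 against 0.615, 1.93 and 0.319 CPM. For all 3 of these genes MKO replicate 2 was the highest library. Fosl1 had 1, 0 and 0 counts under the f/f label and 0, 1 and 0 under the MKO label, where 3 counts would equal 0.0742 to 0.104 CPM, and it was left out of the liver test by the filter on low counts.

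Among 17 other immediate-early genes tested in liver, 7 were lower and 0 higher under the MKO label at an unadjusted p under 0.05, while 0 passed the adjusted threshold by edgeR; 5.18% of all genes were lower and 5.27% higher. The list's median log2 difference was -0.33 against -0.01 for all genes. DESeq2 counted 9 lower at an unadjusted p under 0.05, and leaving out each library gave 5 to 8. Dusp1, a phosphatase that switches off MAP kinases, was at 142, 179 and 166 CPM under the f/f label and 54.3, 49.3 and 41.9 CPM under the MKO label (log2 difference -1.74 ± 0.14, adjusted p = 0.0634, edgeR). Egr1, a zinc-finger factor induced through SRF like Fos, was at 35.0, 36.4 and 28.8 against 11.04, 15.3 and 16.5 CPM (-1.23 ± 0.17, adjusted p = 0.303). Of 28 upstream kinases and SRF factors, 0 reached an unadjusted p under 0.05 by edgeR (2 lower without f/f replicate 1, 1 lower without MKO replicate 3 and 1 higher without f/f replicate 2); the smallest p values in each direction belonged to Map3k5 (-0.64 ± 0.30) and Mrtfa (-0.24 ± 0.15), and to Mapk9 (0.15 ± 0.10) and Elk4 (0.12 ± 0.09). Of 23 other bZIP genes, 2 were lower (Atf6, -0.40 ± 0.14, and Bach1, -0.39 ± 0.15) and 1 higher (Ddit3, which encodes the stress factor CHOP, 1.24 ± 0.40), with a range of 0 lower without MKO replicate 2 to 4 lower without MKO replicate 3 and 0 higher without f/f replicate 2 or 3. Of 13 AP-1 targets tested in liver, 1 was lower (Mmp14, -0.48 ± 0.18) and 0 were higher; 0 were lower without f/f replicate 3 or MKO replicate 1 and 2 without f/f replicate 1 or MKO replicate 3. Without MKO replicate 1, 1 target was higher. The bZIP and target counts stand against the same 5.18% and 5.27% of all liver genes.

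All 7 of the tested neutrophil markers were lower in livers under the MKO label, 2 of them at an unadjusted p under 0.05, and the summed level of the 8 listed ran from 8.69 to 85.1 CPM against 9.25 to 16.7 CPM, with no marker at 0. Summed Kupffer cell markers ran from 223 to 590 CPM under the f/f label and from 195 to 503 CPM under the MKO label. The part of these cells in the Fos values was not tested. The genes most like Fos over the 6 livers were Odf2, Tpst2, Cpne1, Prr12 and Gm17655, with Pearson's r from 0.978 to 0.988.

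The genotype difference of Jun had opposite signs in the tissues, 1.13 in BMDMs and -0.42 in livers as labelled. The difference between these effects was 1.55 ± 0.31 on the log2 scale (unadjusted p = 4.5e-04, adjusted p = 0.126, edgeR, fit over 12 libraries). No member passed the adjusted threshold in this test by edgeR, against 0.0058% of 17246 genes (1 gene). DESeq2 gave 1.58 for Jun with an adjusted p of 8.16e-04, and edgeR gave an adjusted p of 0.0495 without BMDM f/f replicate 1 and values up to 0.303 without other libraries. At an unadjusted p under 0.05 there were 2 members, Jun and Batf, against 14.5% of all genes. Batf had a difference of -1.96 ± 0.86 (unadjusted p = 0.0451), which was -1.18 without BMDM f/f replicate 3 (unadjusted p = 0.143). It was -1.10 without liver MKO replicate 2, which held 124 Batf counts against 16 to 57 in the other livers. Maff followed with -2.55 ± 1.18 (unadjusted p = 0.0551) and Fos with 1.21 ± 0.61 (unadjusted p = 0.0728).

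Between f/f BMDMs and livers labelled f/f, 8 of 10 members were higher in BMDMs at an adjusted p under 0.05 by edgeR, against 32.7% of 17246 genes, and 1 was lower, against 36.6%. Groups did not overlap for 8 members that were higher in BMDMs and 1 that was lower, against 33.7% and 37.7% of all genes. Tissue, culture, TSH, diet and insulin all differ between these groups and cannot be told apart. Levels are compared here per kilobase of exon and scaled over all 12 libraries. Atf3 had the largest difference among members with more than 1 count in f/f livers, at 80.8 ± 57.6 CPM per kilobase in BMDMs and 1.75 ± 0.73 in livers (SD, n = 3), a log2 difference of 5.53 ± 0.63 (adjusted p = 2.04e-05, edgeR). Batf (4.01 ± 0.67), Fosl2 (3.40 ± 0.59), Junb (2.21 ± 0.51), Fos (2.05 ± 0.44) and Jun (0.81 ± 0.22) were also higher in BMDMs on the log2 scale, with adjusted p from 3.18e-04 to 0.00708, and their groups did not overlap. Without BMDM f/f replicate 3 the differences were 4.80 for Atf3, 3.26 for Batf, 2.64 for Fosl2 and 1.69 for Junb, all still under an adjusted p of 0.05. Fosl1 had 1832 counts in f/f BMDMs and 1 in livers labelled f/f, a ratio of 869 after scaling with an exact 95% interval of 156 to 34330 that covers counting error only. Of these counts, 1415 came from BMDM f/f replicate 3; without it the ratio was 259 (46.2 to 10253).

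Jund was the single member lower in BMDMs than in liver, at 18.0 ± 6.14 against 38.8 ± 0.99 CPM per kilobase (log2 difference -1.11 ± 0.20, adjusted p = 5.31e-04, edgeR). The size of this difference depends on the scaling. Without TMM factors the Jund means were 22.2 and 28.4 CPM per kilobase. The groups still did not overlap, with at most 24.8 in f/f BMDMs and at least 26.6 in livers labelled f/f. Maff was called higher in BMDMs (2.19 ± 0.85, adjusted p = 0.0393), but its groups overlapped and the difference was 0.84 without BMDM f/f replicate 3 (adjusted p = 0.312). The Maff call was also lost with a replicate block and without BMDM MKO replicate 2, liver f/f replicate 1 or 3 or liver MKO replicate 1. Fosb did not pass the test (1.57 ± 0.80, adjusted p = 0.103, edgeR), although its groups did not overlap, as for 33.7% of all genes in this direction.

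**Figure D5:**
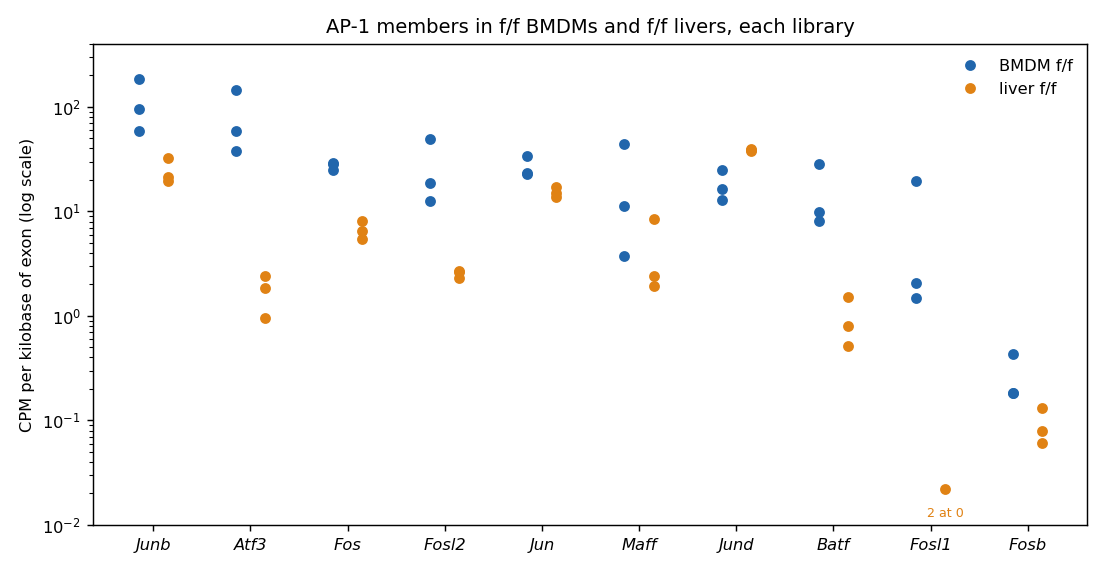
CPM per kilobase of exon of each AP-1 member in the 3 f/f BMDM libraries (blue) and the 3 livers labelled f/f (orange), on a log axis, ordered by the BMDM mean. Jund is the member with all livers above all BMDMs, the Maff points overlap, and Fosl1 is at 0 in 2 livers.

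The order of the members therefore differed between groups. In f/f BMDMs the order by mean was Junb (113 ± 64.4 CPM per kilobase), Atf3 (80.8 ± 57.6), Fos (27.6 ± 2.15), Fosl2 (26.9 ± 19.7), Jun (26.7 ± 6.29), Maff (19.6 ± 21.3), Jund (18.0 ± 6.14), Batf (15.4 ± 11.2), Fosl1 (7.75 ± 10.3) and Fosb (0.266 ± 0.145). Every pair of neighbours in this order differed by less than the SD of the more variable gene. In MKO BMDMs Atf3 (73.9 ± 1.31) and Jun (58.7 ± 4.601) came first, ahead of Junb (48.3 ± 22.7), Fos (30.5 ± 17.0) and Jund (15.5 ± 1.16). There Atf3 and Jun differed by more than either SD, while Jun and Junb did not differ beyond the SD of Junb. Livers of both labels had the same leading order of Jund, Junb, Jun and Fos: 38.8 ± 0.99, 24.5 ± 6.88, 15.3 ± 1.73 and 6.67 ± 1.37 CPM per kilobase under the f/f label, and 37.8 ± 2.83, 13.3 ± 7.00, 11.5 ± 3.39 and 3.18 ± 1.97 under the MKO label. Junb and Jun in MKO-labelled livers did not differ beyond the SD of Junb, whereas the other neighbours in both liver orders did. Exons of Jun, Junb, Jund and Fosl1 overlap exons of an antisense gene (Junos, Prdx2, Gm11175 and Ccdc85b); the libraries were strand-specific, but the strand setting of the counting is not given in the sources used here, so reads of these pairs may not be separated.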

How the data were processed

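Male mouse BMDMs and livers were sequenced from strand-specific TruSeq libraries, 3 per group. The authors trimmed reads with Skewer and checked them with FastQC 0.11.2; their processing notes name STAR, StringTie and mm10, and the annotation and counter are not given in the sources used here. The deposited values are raw counts per gene (55335 genes, not normalized); no row lacked a symbol and 108 symbols stood on more than 1 row, none of them a member. Groups came from the sample labels. Counts were scaled by TMM, filtered with filterByExpr (15372 genes in BMDMs, 15062 in liver, 17246 over 12 libraries) and tested with edgeR's robust quasi-likelihood test (edgeR 4.0.16, R 4.3.3); p-values were adjusted by the Benjamini-Hochberg method across all tested genes, with a threshold of 0.05. The authors' own method, MARS, treats summed counts as single libraries and was run as an alternative only, as were DESeq2 1.42.0, scaling by RLE or by the upper quartile, omission of the filter, a stricter filter at 50 counts on average, a replicate block, a fit over all 12 libraries and each library left out. Exon lengths and positions came from GENCODE M21 (GRCm38), which held all 10 members, and promoters from RefSeq. Scripts were tested on simulated data. All replicate pairs differed by more than sampling noise. Where the labels do not say that BMDM cultures were separate, p-values measure the spread between these libraries.

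The members and the gene and marker lists were chosen with earlier results of these data known. Named genes are the 10 members, Tshr and Lyz2, the 2 genes of smallest unadjusted p in each direction and tissue from each list, and the 5 genes most like the member of smallest p in each tissue. A gene that this rule names is not reported here.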

Additional observations from a re-analysis of the deposited data

How the results depend on the processing

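The 3 libraries per group limit every genotype result, and MARS ignores the spread between them. In BMDMs, edgeR called 0 members at the adjusted threshold. DESeq2 called 2, against 671 lower and 442 higher of 25135 genes. The fit over all 12 libraries called 1, against 85 lower and 65 higher of 17246 genes. MARS called 9, against 4394 lower and 8829 higher of 25179 genes. At an unadjusted p under 0.05, 4 were lower and 1 higher. Leaving out each library gave 1 to 5 lower and 1 to 2 higher, and MARS gave 4 higher. Shares of all genes at an unadjusted p under 0.05 were counted in the main edgeR fits only. Counts of members and lists at that threshold under the alternatives therefore have no share beside them. Reversed values were Fos -8.90e-04 and Atf3 0.11 under the replicate block, and Jund 0.022 and Atf3 0.21 under MARS; leaving out libraries ran Jund from -0.41 to 0.077, Atf3 from -0.47 to 0.61 and Fos from -0.41 to 0.38. In liver, 1 member was lower at an unadjusted p under 0.05; DESeq2 gave 2, the replicate block 2, MARS 5 and the sample ID letter as covariate 0, and leaving out libraries gave 0 to 3 lower and 0 to 1 higher. MARS gave 2 higher. At the adjusted threshold MARS called 7 members in liver, against 4268 lower and 5121 higher of 23672 genes. Leaving out libraries ran Maff from -1.19 to 0.21, Atf3 from -0.85 to 0.087 and Batf from -0.14 to 1.21. Between tissues' genotype effects, 0 members passed the adjusted threshold by edgeR, and 0 to 1 with libraries left out. DESeq2 called 1, against 296 lower and 393 higher of 27798 genes. At an unadjusted p under 0.05, 1 was lower and 1 higher, against 2 lower without the filter, 2 lower and 2 higher by DESeq2, and 0 to 3 lower and 1 to 2 higher with libraries left out. Fosb reversed to 0.17 under the replicate block, and leaving out libraries ran Fosb from -1.12 to 0.98, Atf3 from -0.29 to 0.81, Junb from -0.80 to 0.19 and Jund from -0.37 to 0.14. The counts of members called between f/f tissues stayed within 1.5 times under every alternative run. Without TMM factors, the mean level per kilobase of a member in a group moved by at least its SD in 13 cases and by less in 27. The replicate numbers share no stated origin: deviations of same-numbered libraries correlated at 0.096, 0.013 and 0.102 in BMDMs and -0.056, 0.217 and -0.021 in liver, and not every library correlated best with its own number. Apart from the shifts of f/f replicate 3 and MKO replicate 3 described above, the cause of these moves was not tested. Values of the gene lists with a library left out or under DESeq2 were added after seeing the data.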
